A study of Mus musculus with 2343 samples.

Results

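Transcription factors of the mesoderm and the limb bud were followed in thymic epithelial cells (TECs) of mice. The set was given by name and held 47 genes, all of which have a row among the 45317 gene rows of the deposited table. It comprised the paired-type homeobox genes Prrx1, Prrx2, Alx1, Alx4, Pitx1 and Gsc, the odd-skipped genes Osr1 and Osr2, and the T-box genes Tbx2, Tbx3, Tbx4, Tbx5, Tbx15, Tbx18, Tbx20 and Eomes. It further held Six2, the forkhead genes Foxc1, Foxc2, Foxf1 and Foxl2, the Sox genes Sox7, Sox17 and Sox18, Wt1, Irx1 to Irx6, Sall1, Sall3, Sall4, Msx1, Msx2, Hand1, Hand2, Twist1, Twist2, Evx1, Evx2, Meis1, Meis2, Barx1, Barx2 and Tlx1.

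The cells were cortical TECs (cTECs) and medullary TECs with high surface MHC class II (mTEChi). The cTECs labelled Eed came from the strain Eedflfl::beta5tCre and were labelled ZsGreen negative, and the wild-type (WT) cTECs came from Eedflfl mice. The Eed mTEChi cells came from Eedflfl::ZsGreen::beta5tCre mice and were sorted as ZsGreen positive (ZsGpos) or negative (ZsGneg), and the WT mTEChi cells came from Eedflfl::ZsGreen mice. All groups therefore carried floxed Eed, and the WT labels give no Cre. The floxed gene, Eed, codes for a core part of PRC2, the Polycomb complex that places the repressive mark H3K27me3 on histones. The gene beta5t (Psmb11), from which the Cre driver takes its name, marks cortical cells and the progenitors that cortical and medullary lineages share, and mTEChi cells are thought to descend in part from such progenitors. The labels give no age, sex or animal. RNA was amplified with SMART-seq2 from single cells, from small pools and, for mTEChi, from bulk samples of about 1000 cells.

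Mesodermal transcription factors act in combination to pattern the limb buds, the body wall, the heart and the craniofacial mesenchyme, and their genes are textbook targets of Polycomb repression in tissues that do not use them. Epithelial cells of the thymus arise from pharyngeal endoderm and are kept apart from the surrounding neural crest-derived mesenchyme, in which several of these factors are normally active. Genes of this kind are usually preceded by CpG-rich promoters, the sequence class to which PRC2 is recruited in mammalian cells.

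Promoter sequences could be matched for 25 of the 47 members, as 27 windows of 300 bases in RefSeq (build GRCm38.p6) that run from 250 bases before to 50 bases after an annotated transcript start. The motif searched was CG, which reads the same on both strands. The median member window held 25 CG, against 7 over all 32851 windows of 27025 genes. At least 10 CG were found in 92.6% of the member windows and in 43.5% of all windows. The 12 windows of members that were higher in Eed cTECs had a median of 26 CG and the 15 windows of the other members a median of 17. The share with at least 10 CG was 91.7% for the members that were higher and 93.3% for the others. That share did not set the members that were higher apart. A CG count is a description of these letters only. Below are the 250 bases before the start for 4 members that were high in cells of the Eed strain (Prrx1, Prrx2, Twist1, Gsc), for Meis2, which was detected in nearly every cTEC of both strains, and for Tlx1, which had no count in any cTEC. Each is written 5′ to 3′ on the gene's strand, with CG in capitals. They lie at chr1:163313651-163313900 (minus strand), chr2:30845117-30845366 (plus), chr12:33957421-33957670 (plus), chr12:104473237-104473486 (minus), chr2:116064620-116064869 (minus) and chr19:45150465-45150714 (plus).
Prrx1: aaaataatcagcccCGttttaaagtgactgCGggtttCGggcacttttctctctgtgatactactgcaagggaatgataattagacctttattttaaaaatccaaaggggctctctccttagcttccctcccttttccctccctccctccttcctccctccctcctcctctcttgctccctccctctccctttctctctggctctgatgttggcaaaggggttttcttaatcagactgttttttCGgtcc
Prrx2: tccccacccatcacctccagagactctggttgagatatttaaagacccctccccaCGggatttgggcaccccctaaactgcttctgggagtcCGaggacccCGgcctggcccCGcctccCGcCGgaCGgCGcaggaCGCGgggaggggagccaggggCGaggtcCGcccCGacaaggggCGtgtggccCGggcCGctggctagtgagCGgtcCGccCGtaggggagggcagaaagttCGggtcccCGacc
Twist1: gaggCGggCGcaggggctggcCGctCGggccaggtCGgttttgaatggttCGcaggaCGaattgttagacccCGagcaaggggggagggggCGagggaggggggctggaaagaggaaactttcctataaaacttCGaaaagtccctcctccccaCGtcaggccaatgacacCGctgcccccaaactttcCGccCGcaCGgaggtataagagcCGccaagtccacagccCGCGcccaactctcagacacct
Gsc: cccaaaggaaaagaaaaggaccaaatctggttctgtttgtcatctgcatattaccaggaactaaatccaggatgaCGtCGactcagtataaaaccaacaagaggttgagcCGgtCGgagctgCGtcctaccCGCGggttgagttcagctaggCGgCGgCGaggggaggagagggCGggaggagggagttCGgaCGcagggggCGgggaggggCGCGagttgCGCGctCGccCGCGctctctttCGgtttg
Meis2: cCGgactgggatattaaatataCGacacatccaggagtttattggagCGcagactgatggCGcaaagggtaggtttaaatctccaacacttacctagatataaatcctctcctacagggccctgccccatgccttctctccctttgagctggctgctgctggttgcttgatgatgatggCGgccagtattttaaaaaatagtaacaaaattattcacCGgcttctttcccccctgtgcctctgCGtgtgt
Tlx1: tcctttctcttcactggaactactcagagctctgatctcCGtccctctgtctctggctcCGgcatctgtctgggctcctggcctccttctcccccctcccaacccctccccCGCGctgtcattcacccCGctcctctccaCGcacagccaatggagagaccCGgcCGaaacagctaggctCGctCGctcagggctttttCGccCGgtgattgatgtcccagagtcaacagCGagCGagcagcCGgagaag
The windows of Prrx2, Gsc, Twist1 and Tlx1 hold 21, 22, 18 and 15 CG in these 250 bases. Those of Meis2 and Prrx1 hold 7 and 4. The Prrx1 window lies inside the annotated span of the gene (chr1:163245119-163315145), ahead of one of its transcript starts. The same holds for Prrx2 (chr2:30845064-30881251), Meis2 (chr2:115861264-116067537) and Tlx1 (chr19:45150092-45156943).

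Bulk libraries held 10519116 to 14990893 gene counts. Single cells were kept with at least 50000 gene counts and 1000 genes, which left 605 cTECs of 768 wells and 833 mTEChi cells of 1505 wells. Of the cTECs 55.04% came from the Eed strain and 44.96% from WT mice, and of the mTEChi cells 26.05% were ZsGpos, 39.62% ZsGneg (330 cells) and 34.33% WT. The filter kept 86.7% of the Eed and 70.8% of the WT cTEC wells, and 40.2%, 70.4% and 57.7% of the ZsGpos, ZsGneg and WT mTEChi wells. The median Eed cTEC held 516069 gene counts and the median WT cTEC 538740, and the mTEChi medians were 309825 for ZsGpos, 303038 for ZsGneg and 289438 for WT cells. Levels are CPM, the counts of a gene divided by all gene counts of its group or library and put on one common scale. Summed over cells, Eed had 20.9 CPM in Eed cTECs and 34.2 CPM in WT cTECs, and these counts cover the whole gene, so they do not test the deletion. Of 14 wells without template, 3 on plate SCGC1380 held 51838 to 73567 gene counts, with 1 to 26 counts of Six2, Tbx15, Foxc1, Sox17, Irx2, Irx4, Irx5, Meis2 or Barx2 and none of Prrx1, Osr2, Gsc, Twist1 or Msx1. The other 11 wells held no count of a member.

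The labelled cell types were checked against their markers. Epithelial markers summed to 2242 CPM in Eed cTECs and 6218 CPM in WT cTECs. All 6 cTEC markers were lower in Eed cTECs: they summed to 2346 CPM against 14883 CPM in WT cTECs, with Psmb11 at 34.3 against 790 CPM and Prss16 at 218.8 against 3443 CPM. Krt5, a keratin usual for medullary TECs, stood at 2855 CPM in Eed cTECs and 574 CPM in WT cTECs. The cells labelled Eed cTEC therefore carried low levels of the genes that define the cortical type.

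The labels name no animal for the single cells, so each group is 1 sample: no test was possible, and the 95% intervals given are exact and cover counting error only. Since no molecular identifiers were used, reads copied from one molecule were counted separately, and the intervals are too narrow for that reason. A gene was called higher or lower where its summed CPM differed at least 2-fold, the higher group reached 1 CPM and at least 10 of its cells held a count. A gene with 0 counts in a group was set to a floor of 3 counts over that group, and the fold is then a lower bound. Levels are CPM without correction for gene length, so genes are not ranked against each other.

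In cTECs of the Eed strain, 26 of the 30 members past this level rule were higher than in WT cTECs and 0 were lower. Over all 15673 genes past the rule, 17.2% were higher and 12% were lower. The median log2 difference was 5.10 over the 30 members, with members without a WT count at their bound, and 0.03 over all genes. A member that passed through a high level in the Eed cells alone had to differ, so these counts describe the members and do not test them. The remaining 17 members stayed under the level rule. Because the cTEC labels give no plate, plate and strain cannot be told apart.

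**Figure D1:**
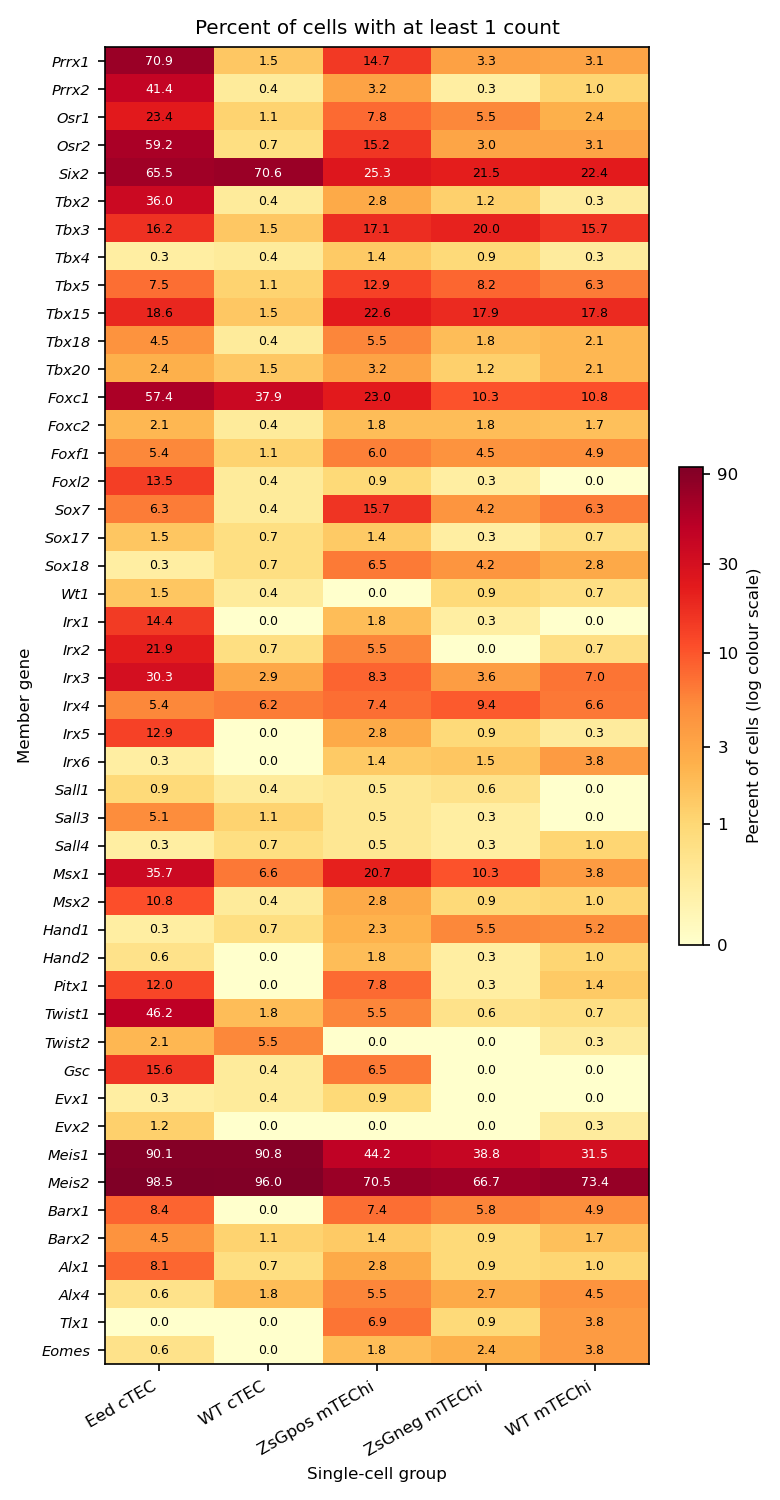
Percent of single cells with at least 1 count of each of the 47 members (rows) in the 5 single-cell groups (columns), with the percent written in each cell and a log colour scale. The Eed cTEC column holds many members above 10%, led by Meis2 (98.5%), Meis1 (90.1%) and Prrx1 (70.9%), while the WT cTEC column holds Meis2, Meis1, Six2 and Foxc1 and few others.

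The paired-type homeobox genes Prrx2 and Prrx1 gave the largest ratios of the members. Prrx1, a marker and regulator of limb and craniofacial mesenchyme, was detected in 70.9% of Eed cTECs (interval 65.7% to 75.7%) and in 4 WT cTECs (1.47%). Its level was 190.01 CPM in Eed cTECs and 0.0797 CPM in WT cTECs, 2385-fold apart (interval 1333 to 4779). No single cell dominated the Prrx1 counts of the Eed group, since the highest held 2.96% of them. Its paralogue Prrx2 had 28.4 CPM in 41.4% of Eed cTECs against 1 count in 1 WT cTEC, a ratio of 3926 (interval 704 to 155100). Of the Eed cTECs with Prrx2, 89.1% also held Prrx1, which was found in 70.9% of all Eed cTECs, and 52.1% of the cells with Prrx1 held Prrx2 (41.4% of all).

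Gsc (goosecoid), the homeobox gene of the gastrula organiser and later of the jaw and rib mesenchyme, had 6.24 CPM in 15.6% of Eed cTECs. The WT cTECs held 2 counts in 1 cell, a ratio of 430.7 (interval 118.9 to 3561). Pitx1, which specifies the hindlimb, had 4.68 CPM in 12% of Eed cTECs and no count in WT cTECs, at least 215.4-fold higher. Both genes were thus carried by a minority of the Eed cells. Alx1, a factor of the frontonasal mesenchyme, had 6.72 CPM in 8.11% of Eed cTECs and 0.217 CPM in WT cTECs, 30.9-fold apart, a member described after its values were seen. Its relative Alx4 stayed under the level rule, with 0.129 and 0.876 CPM.

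The odd-skipped factors mark intermediate mesoderm, synovial joints and loose connective tissue. Osr2 had 108.06 CPM in 59.2% of Eed cTECs and 0.261 CPM in 2 WT cTECs (0.735%), 414.5-fold apart (interval 299.3 to 592). Osr1 stood at 25.1 CPM in 23.4% of Eed cTECs and 1.16 CPM in 1.1% of WT cTECs, 21.6-fold apart. Osr2 was found in 62.8% of the Eed cTECs with Osr1, and Osr1 in 24.9% of those with Osr2, both near the shares of 59.2% and 23.4% among all Eed cTECs. Prrx1 was found in 77.2% of the Eed cTECs with Osr2 (70.9% of all), and Osr2 in 64.4% of those with Prrx1 (59.2% of all).

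Among the T-box genes, Tbx2, a repressor of limb, heart and jaw development, had 22.4 CPM in 120 Eed cTECs (36.04%) and 3 counts in 1 WT cTEC, a ratio of 1031 (interval 352.5 to 5001). Tbx5, the forelimb and heart factor, had 3.77 CPM in 7.51% of Eed cTECs and 0.0435 CPM in WT cTECs, 86.8-fold apart (interval 39.7 to 237.5). The next 3 fell outside the 12 highest folds and are given after their values were seen. Tbx3, which acts beside Tbx2 in the limb margin, was 76.6-fold higher, Tbx15, a factor of dermis and limb skeleton, 37.9-fold and Tbx18, a factor of somite and epicardium, 9.44-fold. Tbx4, the hindlimb counterpart of Tbx5, and Tbx20 stayed under the level rule, and Eomes, the T-box gene of mesendoderm and of cytotoxic lymphocytes, had 12 counts in Eed cTECs and 0 in WT cTECs. Tbx2 and Tbx3, which lie in the same family group, were found together in 16 Eed cTECs, 13.3% of those with Tbx2, beside 16.2% of all Eed cTECs with Tbx3.

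The Irx genes, which pattern heart, limb and neural tissue from a pair of gene clusters, did not all differ. Irx5 had 4.99 CPM in 12.9% of Eed cTECs and no count in WT cTECs, at least 229.6-fold higher. Irx1 had 2.13 CPM in 48 Eed cTECs (14.4%) and no count in WT cTECs, at least 97.98-fold higher. Irx2 and Irx3 were 29.5-fold and 12.8-fold higher, with Irx3 detected in 30.3% of Eed cTECs and 2.94% of WT cTECs. Irx4 went the other way within the 2-fold limit, with 1.90 CPM in Eed cTECs and 3.12 CPM in WT cTECs, and Irx6 had 1 count in Eed cTECs and none in WT cTECs. Irx3 and Irx5, which are neighbours on the chromosome, were found together in 22 Eed cTECs. Irx3 was in 51.2% of those with Irx5 (30.3% of all), and Irx5 in 21.8% of those with Irx3 (12.9% of all).

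Msx1 and Msx2, homeobox targets of Bmp signalling in the limb bud and the skull, were detected in different shares of WT cells. Msx2 had 8.05 CPM in 10.8% of Eed cTECs and 1 count in WT cTECs, a ratio of 1112 (interval 199.3 to 43961). Msx1 was already detected in 6.62% of WT cTECs, and its 31.4 CPM in 35.7% of Eed cTECs was 4.51-fold above the WT level of 6.96 CPM (interval 4.21 to 4.84). The Barx homeobox genes act in stomach mesenchyme, teeth and cartilage: Barx1 had 2.69 CPM in Eed cTECs and no count in WT cTECs, at least 123.7-fold higher, and Barx2 was 30.3-fold higher at 1.10 CPM.

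Twist1 and Twist2 are basic helix-loop-helix factors that keep mesenchyme undifferentiated. Twist1 had 15.8 CPM in 46.2% of Eed cTECs and 0.340 CPM in 5 WT cTECs (1.84%), 46.6-fold apart. Twist2 stood at 0.822 and 0.978 CPM, under the level rule. Twist1 shared 120 Eed cTECs with Prrx1, 77.9% of the cells with Twist1, where Prrx1 was found in 70.9% of all Eed cTECs.

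Of the forkhead genes, Foxl2, a factor of the ovary and the eyelid, had 1.08 CPM in 13.5% of Eed cTECs against 1 count in WT cTECs, a ratio of 149.1 (interval 26.4 to 5921). Foxf1, a factor of splanchnic mesoderm, was 17.2-fold higher at 2.25 CPM. Foxc1, which acts in head mesenchyme, blood vessels and skin appendages, was detected in 37.9% of WT cTECs and 57.4% of Eed cTECs, with 16.4 and 35.5 CPM, 2.16-fold apart. Foxc2 stayed under the level rule at 0.203 and 0.853 CPM. Sox7, an endothelial factor, was 26.9-fold higher in Eed cTECs, but 1 cell held 34.6% of its counts. Sox17 and Sox18, which share the role of Sox7 in vessels, stayed under the level rule, and Sox18 had 15 counts in WT cTECs and 1 in Eed cTECs. The zinc finger gene Sall3 was 9.98-fold higher at 1.66 CPM in Eed cTECs.

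The members detected in most WT cTECs moved least. Meis2, a TALE homeobox partner of Hox proteins in the limb, had 260.55 CPM in 98.5% of Eed cTECs and 268.2 CPM in 95.96% of WT cTECs. Meis1, its paralogue, stood at 236.99 and 279.5 CPM. Six2, a factor of nephron progenitors and head mesenchyme, was detected in 65.5% of Eed cTECs and 70.6% of WT cTECs, at 30.3 and 45.2 CPM. All 3 ratios lay within the 2-fold limit, with a lower level in the Eed group in each. Hand1, Hand2, Evx1, Evx2, Sall1, Sall4, Wt1 and Tlx1 stayed under the level rule in cTECs, with at most 0.472 CPM in either group, and Tlx1 had no count in either.

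**Figure D2:**
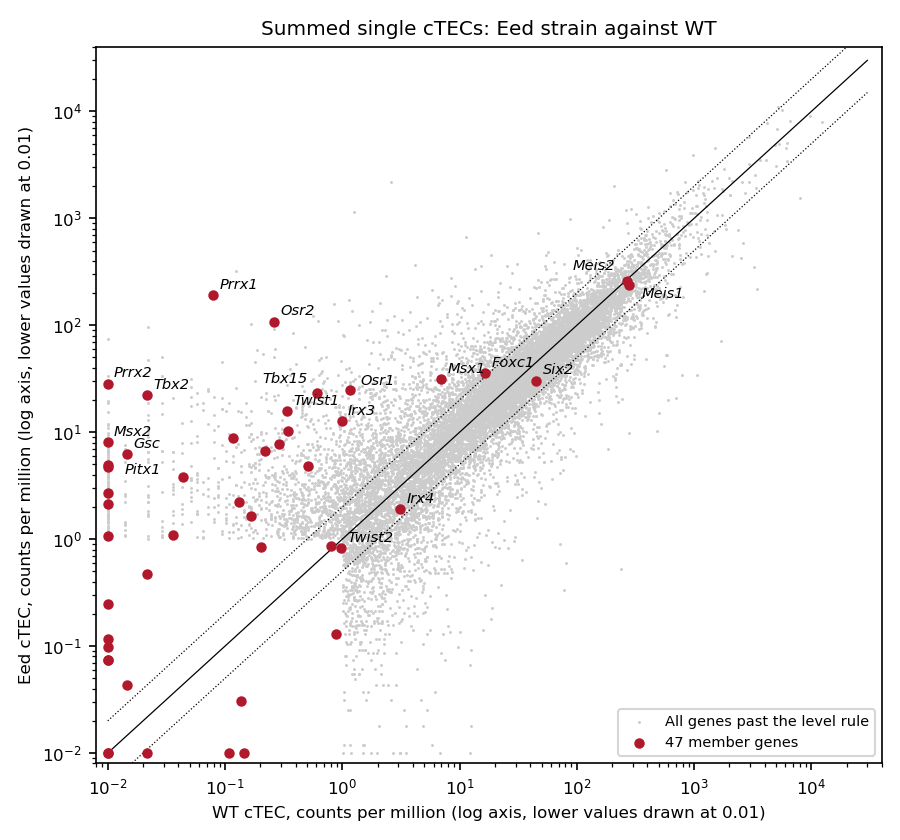
Summed CPM of WT cTECs (x axis) against Eed cTECs (y axis), both on log axes with values under 0.01 drawn at 0.01. Grey points are all genes past the level rule, red points the 47 members, the solid line marks equal levels and the dotted lines 2-fold. Prrx1, Osr2, Prrx2 and Tbx2 lie far above the line, whereas Meis1, Meis2, Six2 and Irx4 lie between the dotted lines.

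The number of members per cell was highest in Eed cTECs. Meis1, Meis2, Six2 and Foxc1 were left out of this count after their levels in WT cTECs were seen, and each cell was thinned to 100000 gene counts to remove depth. Of the 43 members left, the median Eed cTEC held 4 and the median WT cTEC 0. At least 5 members were found in 45.8% of 330 Eed cTECs and in 0 WT cTECs, which allows a share of up to 1.12%. In medullary cells the median was 2 in ZsGpos cells and 1 in both ZsGneg and WT cells, and 5 or more members were found in 12.3%, 0.336% and 1.17% of cells. Over all 47 members the thinned medians were 7 in Eed and 3 in WT cTECs, and 3 in ZsGpos, 2 in ZsGneg and 2 in WT mTEChi cells, so the order of WT cTECs and medullary cells depends on leaving the 4 genes out. Cells without any of the 43 made up 3.33% of Eed cTECs, 75.4% of WT cTECs, 17.1% of ZsGpos, 32.9% of ZsGneg and 39.3% of WT mTEChi cells. Thinning left out 3, 4, 30, 32 and 29 shallower cells. Without thinning the share with at least 5 members was 61.9%, 0.735%, 15.2%, 0.606% and 2.10%, in the same order of groups.

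**Figure D3:**
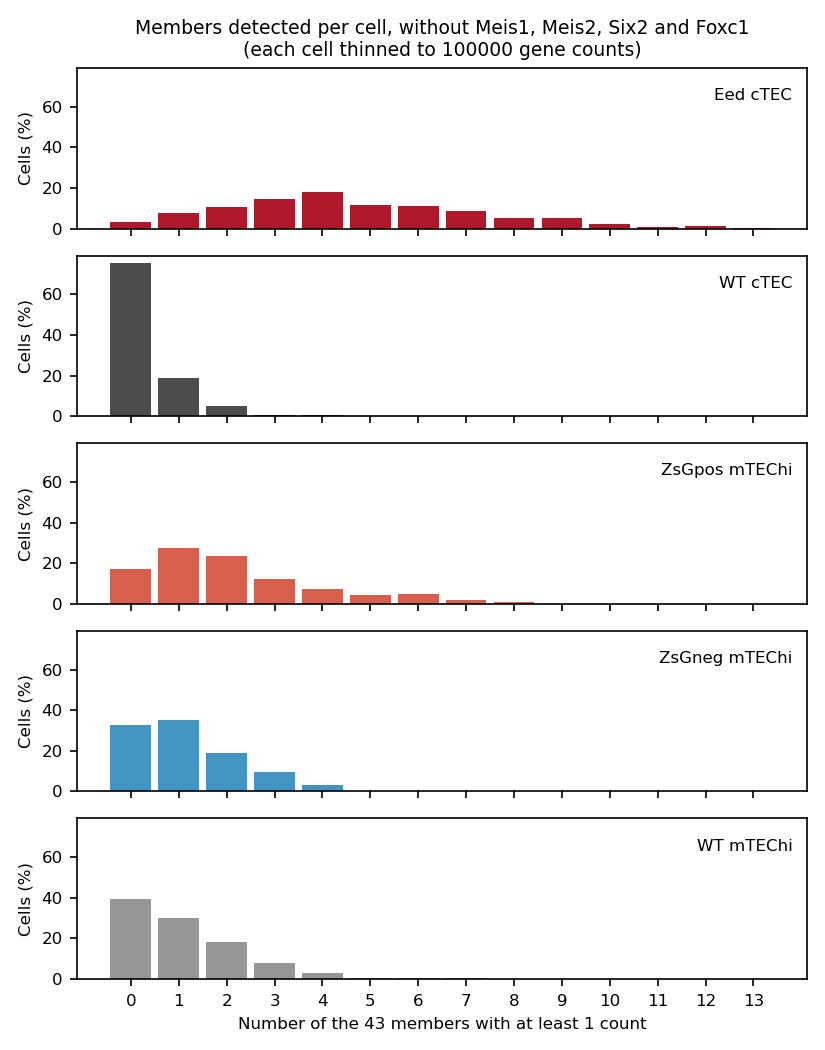
Percent of cells (y axis) by the number of the 43 members with at least 1 count (x axis), 1 panel for each single-cell group, after thinning each cell to 100000 gene counts. The Eed cTEC distribution is centred on 4 members, the WT cTEC distribution is mostly at 0, and ZsGpos cells reach higher numbers than ZsGneg and WT mTEChi cells.

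Mesenchymal marker genes moved with these members. All 10 markers of the list were higher in Eed cTECs, and their sum was 5429 CPM against 1601 CPM in WT cTECs. Pdgfra, the defining receptor of fibroblasts, had 4.20 CPM in Eed cTECs and no count in WT cTECs. Endothelial markers summed to 10.1 and 10.4 CPM, leukocyte markers to 102.02 and 31.3 CPM and mural markers to 162.8 and 808 CPM in Eed and WT cTECs. Cells with at least 3 markers of the mesenchymal, endothelial or leukocyte list at 10 or more counts were called marker-rich, which were 49.85% of Eed cTECs and 9.56% of WT cTECs. Without them, 17 of 22 members past the level rule were higher in Eed cTECs and 0 were lower, against 14.9% higher and 13.2% lower of 14823 genes.

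In the Eed cTECs that were not marker-rich, Prrx1 still had 122.7 CPM and was detected in 57.5%, against 254.8 CPM and 84.3% in the marker-rich cells. Osr2 differed less, with 111.65 CPM in 55.7% of the other cells and 104.6 CPM in 62.7% of the marker-rich cells. Twist1 had 11.2 CPM in 35.3% of the other cells and 20.3 CPM in 57.2% of the marker-rich cells. The 26 marker-rich WT cTECs had no count of Prrx1, Prrx2, Osr2, Tbx2, Msx1 or Gsc, genes named after these values were seen. None in 26 cells leaves room for a share of up to 13.2% (exact interval). The same 26 cells held Osr1 at 7.97 CPM against 0.364 CPM in the other WT cTECs, Tbx15 at 2.70 against 0.364 CPM and Twist1 at 0.485 against 0.323 CPM, each in 1 marker-rich cell.

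Epithelial genes were present in the Eed cTECs with Prrx1. Of these cells, 87.7% held Epcam, 99.2% Krt8 and 98.7% Krt5, against 96.9%, 97.9% and 96.9% of the 97 Eed cTECs without Prrx1. Genes of cortical identity were found in fewer of the cells with Prrx1: Foxn1, the master regulator of TECs, in 28.8% against 60.8%, Psmb11 in 5.51% against 18.6% and Prss16 in 51.3% against 68.04%. Col3a1 was found in 70.3% against 39.2%, Col1a1 in 20.8% against 13.4% and Pdgfra in 6.36% against 9.28%. Dcn was found in every Eed cTEC with or without Prrx1, and in 90.7% of the WT cTECs without Prrx1. The median depth was 521610 gene counts with Prrx1 and 493010 without. These shares compare cells within 1 sample and carry no test.

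In single mTEChi cells fewer members passed the 2-fold rule. ZsGpos cells were compared with WT cells over 4 plates, and 10 of the 27 members past the level rule were higher and 2 lower, against 7.58% higher and 11.2% lower of 16177 genes. The median log2 difference was 0.61 over the 27 members and -0.05 over all genes. ZsGneg against WT gave 4 members higher and 2 lower of 22 past the rule, against 5.75% and 9.29% of 16379 genes, with medians of 0.21 and -0.02. ZsGpos against ZsGneg gave 10 higher and 3 lower of 25, against 8.47% and 8.65% of 16029 genes, with medians of 0.66 and -0.03. Within plates SCGC1373 and SCGC1379 the median of the members in ZsGpos against ZsGneg was negative (-0.25 and -0.24). These 3 comparisons share their groups, so their results are not independent of each other.

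Prrx1 was detected in 32 ZsGpos cells (14.7%, interval 10.3% to 20.2%), 11 ZsGneg cells (3.33%) and 9 WT cells (3.15%). Its levels were 19.9, 1.68 and 1.03 CPM, so that ZsGpos cells stood 19.3-fold above WT cells (interval 15.6 to 24.1) and 11.8-fold above ZsGneg cells (interval 10.1 to 13.9). Within the plates that held enough ZsGpos cells (SCGC1373, SCGC1379 and SCGC1380), Prrx1 stood at 11.8, 23.5 and 18.3 CPM in ZsGpos, at 2.49, 1.13 and 1.62 CPM in ZsGneg and at 1.02, 0.442 and 1.26 CPM in WT cells. ZsGpos cells were the highest group on each of these plates. Plate SCGC1381 held 2 ZsGpos cells past the filter and gave no value of its own. Prrx2 was low in all medullary cells, with 0.578 CPM in ZsGpos, 0.0755 CPM in ZsGneg and 0.190 CPM in WT cells.

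Among the single medullary cells Gsc was seen only in the ZsGpos group: 14 cells (6.45%) held it at 2.74 CPM, and ZsGneg and WT cells held none on any of the 4 plates. It was at least 81.7-fold above WT and at least 96.8-fold above ZsGneg cells. The 3 plates contributed 0.314, 3.01 and 3.71 CPM. Bulk samples did not show Gsc as particular to ZsGpos cells. It was at 0.0772 to 0.477 CPM in bulk ZsGneg, 0 to 0.283 CPM in bulk ZsGpos and 0 to 0.14 CPM in bulk WT samples, too low to be tested there. Osr2 had 29.6 CPM in 15.2% of ZsGpos cells, 4.16 CPM in 3.03% of ZsGneg cells and 0.749 CPM in 3.15% of WT cells. It stood 39.5-fold above WT (interval 30.99 to 51.2) and 7.11-fold above ZsGneg, and 1 ZsGpos cell held 45.3% of its counts. Bulk samples overlapped for Osr2, at 0.0848 to 3.52 CPM in ZsGpos, 0 to 0.572 CPM in ZsGneg and 0.0529 to 7.24 CPM in WT. The bulk log2 fold change of Osr2 in ZsGpos was -0.78 against WT (SE 2.02) and 3.06 against ZsGneg (SE 2.04), so the rise over WT was not seen there. Without marker-rich cells the Osr2 fold was 19.1 over WT and 3.14 over ZsGneg, and that of Gsc over WT at least 48.3. Leaving out plate SCGC1379 brought the Osr2 folds to 24.3 over WT and 3.47 over ZsGneg, and leaving out SCGC1373 brought them to 68.6 and 16.7. Gsc was at least 45.4-fold over WT without SCGC1380, but in too few cells for the rule. Without SCGC1379 Gsc was at least 55.7-fold over ZsGneg.

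Twist1 had 1.32 CPM in 5.53% of ZsGpos cells, 0.236 CPM in 2 ZsGneg cells and 0.0671 CPM in 2 WT cells, 19.7-fold above WT and 5.602-fold above ZsGneg. It had no count in ZsGpos cells on plate SCGC1373, where ZsGneg cells held it, so the direction against ZsGneg turned there. Without marker-rich cells Twist1 was no longer called, at 0.766 CPM, 10.25-fold above WT and 2.57-fold above ZsGneg. Its fold over WT was 5.31 without plate SCGC1379 and 47.4 without SCGC1380, and over ZsGneg 1.22 without SCGC1379 and 21.7 without SCGC1373. Without SCGC1379 or without SCGC1380, Twist1 was in too few ZsGpos cells for the rule.

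Msx1 was detected in 20.7% of ZsGpos, 10.3% of ZsGneg and 3.85% of WT cells, with 13.9, 9.90 and 1.89 CPM. Both Eed groups stood above WT for Msx1, 7.34-fold in ZsGpos and 5.24-fold in ZsGneg. On plates SCGC1373, SCGC1379 and SCGC1380 Msx1 was at 15.9, 12.8 and 14.7 CPM in ZsGpos cells and 3.06, 1.77 and 2.91 CPM in WT cells, while ZsGneg cells had 3.50, 16.6 and 5.31 CPM. ZsGneg cells were thus less than 2-fold above WT cells on SCGC1373 and SCGC1380. On SCGC1381 ZsGneg cells had 9.65 CPM and WT cells 0.0393 CPM. The ZsGneg fold over WT was 3.20 without SCGC1379 and 8.01 without SCGC1380.

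**Figure D4:**
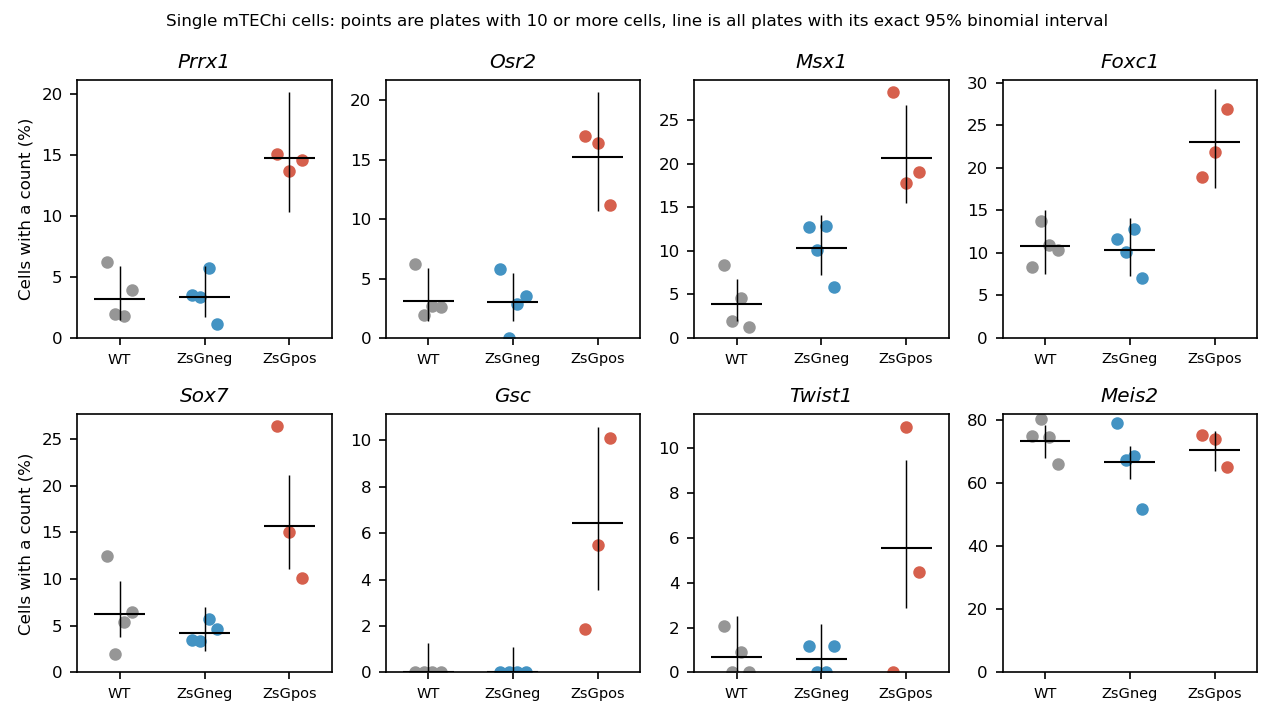
Percent of mTEChi cells with a count of Prrx1, Osr2, Msx1, Foxc1, Sox7, Gsc, Twist1 or Meis2, by plate and group. The groups are ZsGpos, ZsGneg and WT, with 1 point for each plate. ZsGpos cells have no point on plate SCGC1381, which held 2 of them. Prrx1 and Gsc are highest in ZsGpos cells on plates SCGC1373, SCGC1379 and SCGC1380, while Meis2 overlaps between the groups.

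Sox7 was detected in 15.7% of ZsGpos cells against 4.24% of ZsGneg and 6.29% of WT cells, 3.19-fold above WT and 2.98-fold above ZsGneg. Endothelial markers summed to 141.7 CPM in ZsGpos, 57.8 CPM in ZsGneg and 57.3 CPM in WT cells. Of the 8 listed, 2 were called higher in ZsGpos cells and 0 lower, against either group. These were Plvap, at 78.4, 12.1 and 20.2 CPM, and Cldn5, at 25.1, 4.61 and 2.67 CPM in the same order. The part of endothelial transcripts in the Sox7 result was not tested. Tlx1, the homeobox gene of the developing spleen, had 4.49 CPM in 6.91% of ZsGpos cells, 0.510 CPM in ZsGneg and 1.20 CPM in WT cells, although it was absent from the counts of both cTEC groups. It was 3.75-fold above WT and 8.81-fold above ZsGneg in ZsGpos cells, and ZsGneg cells were 2.35-fold below WT. Irx2 had 4.12 CPM in 12 ZsGpos cells and no count in ZsGneg cells, at least 145.4-fold apart, and was 4.38-fold above WT, where 2 cells on plate SCGC1380 held all counts.

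The other medullary calls rested on fewer or less even values. Tbx18 was 2.48-fold and Irx4 2.16-fold above WT in ZsGpos cells, with 54.02% of the Tbx18 counts in 1 cell. Against ZsGneg cells, ZsGpos cells were higher for Pitx1 (11.9-fold, with 1 ZsGneg cell), Foxc1 (2.73-fold) and Alx4 (2.30-fold). Osr1, Hand1 and Foxf1 were lower in ZsGpos than in ZsGneg cells, by factors of 3.36, 3.25 and 2.00. Hand1, a factor of extraembryonic and lateral mesoderm, had 6.44 CPM in 5 ZsGpos cells, 20.96 CPM in 18 ZsGneg cells and 13.8 CPM in 15 WT cells. Irx6 was 6.51-fold lower in ZsGpos and 3.12-fold lower in ZsGneg than in WT cells. ZsGneg cells were 5.56-fold above WT for Osr2, 3.96-fold for Osr1 and 2.47-fold for Irx4. The direction of Irx4, Irx6, Hand1, Tlx1, Osr1, Alx4 and Twist1 turned within a plate or when a plate was left out, in 1 or more comparisons.

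Of the 31 medullary calls, 4 were lost without marker-rich cells: both of Twist1, Osr2 in ZsGneg against WT (then 6.06-fold, but in too few cells for the rule) and Hand1 in ZsGpos against WT (a ratio of 0.601). Single plates moved others by more than 1.5 times. Without SCGC1379, ZsGpos over WT was 2.68 for Irx2, 1.28 for Tbx18 and 3.68 for Irx4, and without SCGC1380 it was at least 79.8 for Irx2, 5.21 for Tbx18, 1.32 for Irx4 and 0.298 for Irx6. Irx6 was at 0.0942 without SCGC1373, and Hand1 at 0.709 without SCGC1381. The ZsGpos calls of Tbx18, Irx4 and Hand1 against WT were each lost without 1 plate by their fold. Those of Gsc, Irx2, Tlx1, Twist1 and Irx6 were lost without 1 plate because they then missed the level rule. For Gsc, Irx2, Tlx1 and Twist1, fewer than 10 ZsGpos cells with a count remained.

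ZsGpos over ZsGneg was 6.95 for Pitx1, 5.21 for Tlx1, 4.66 for Sox7 and at least 71.6 for Irx2 without SCGC1379. It was 90.7 for Pitx1 and 372.6 for Tlx1 without SCGC1381, and 6.82 for Alx4 without SCGC1380. Without SCGC1379 Osr1 turned to 1.70, and without SCGC1373 Hand1 turned to 3.93. ZsGneg over WT was 1.87 for Osr1 and 0.0467 for Irx6 without SCGC1379, 0.565 for Irx6 without SCGC1380 and 0.0125 for Tlx1 without SCGC1381. The folds of Prrx1 moved less, from 13.7 to 22.6 over WT and from 8.15 to 15.09 over ZsGneg.

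Marker-rich cells made up 18.4% of ZsGpos, 17.3% of ZsGneg and 9.09% of WT mTEChi cells. Mesenchymal markers summed to 507.5, 298.1 and 238.8 CPM, with 5 of 10 higher in ZsGpos than in WT cells, and all 10 had counts in each group. Prrx1 had 16.9 CPM in 11.3% of the ZsGpos cells that were not marker-rich and 32.4 CPM in 30% of the 40 marker-rich cells. All 32 ZsGpos cells with Prrx1 held Epcam. Of these 32 cells 53.1% held Aire, the regulator of tissue-restricted antigens, against 82.7% of those without Prrx1. Col1a1 was found in 40.6% against 10.8%, Pdgfra in 21.9% against 3.24% and Ptprc in 25% against 8.65%. Col1a1, Pdgfra and Ptprc were thus found at higher shares in the ZsGpos cells with Prrx1. The other mesenchymal and leukocyte markers are not given here for these cells, nor is their depth. These shares compare cells within 1 sample and carry no test, and the part of such transcripts in the result was not tested.

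Meis1 and Meis2 were the most widely detected members in medullary cells too. Meis2 was found in 70.5% of ZsGpos, 66.7% of ZsGneg and 73.4% of WT cells, at 81.9, 89.9 and 94.7 CPM. Meis1 was at 37.5, 34.2 and 25.96 CPM. Neither differed 2-fold in any medullary comparison. Tbx15 and Tbx3 were detected in WT mTEChi cells at 25.1 and 7.16 CPM, and Tbx5 at 6.38 CPM, levels that WT cTECs did not reach for these genes (0.608, 0.116 and 0.0435 CPM). Several members that were nearly absent from WT cTECs were thus found in a minority of WT mTEChi cells, among them Barx1 at 2.58 CPM in 14 cells and Hand1 at 13.8 CPM. Pitx1 was at 4.66 CPM in WT mTEChi cells, but in 4 cells.

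Bulk mTEChi libraries gave a replicated measure of the same 3 groups. The 9 WT libraries carry a number from 01 to 03 and were summed to 3 units, and each Eed group has 4 units. The labels do not tie a unit to an animal. The p-values therefore cover the spread between these samples, which may be technical. In bulk samples, fewer cells of a type and less RNA per cell cannot be told apart. Of the 47 members 34 passed the filter on low counts and were tested with edgeR's quasi-likelihood test over 18931 genes, and the 13 that did not pass reached at most 4.78 CPM in a unit.

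Prrx1 was the 1 member called. Its level was 93.9, 119.02, 119.36 and 23.5 CPM in the ZsGpos units (mean 88.9 ± 45.2, SD, n = 4), 1.11, 5.79, 1.70 and 0 CPM in the ZsGneg units (2.15 ± 2.53, SD, n = 4) and 0.515, 0.159 and 2.42 CPM in the WT units (1.03 ± 1.22, SD, n = 3). The ZsGpos units lay above all others, and ZsGneg and WT units overlapped. Against ZsGneg the log2 fold change was 5.37 (SE 1.25, edgeR adjusted p = 0.0357). Against WT it was 6.42 (SE 1.49, edgeR adjusted p = 0.0927), which did not pass the edgeR adjusted threshold (unadjusted p = 0.000737, DESeq2 adjusted p = 3.26e-07). Of all genes 2.66% were called between ZsGpos and ZsGneg units, 0.623% higher and 2.04% lower. DESeq2 called 10.6% of all genes there, with 49.98% of its calls higher, against 23.4% of the edgeR calls. The call depends on single units: the edgeR adjusted p of Prrx1 against ZsGneg was 0.0513 without WT unit 01, 0.0788 without ZsGneg 01, 0.0812 without ZsGneg 03, and 0.0686, 0.0918 and 0.0815 without ZsGpos 01, 02 and 03. It reached 1 in a fit with the percentage of counted reads outside genes as a covariate. That percentage was 31.2% to 35.9% in ZsGpos, 18.9% to 24.04% in ZsGneg and, for the WT units, 25.9% to 32.3%, so it differs between the Eed groups. The share of mitochondrial genes was also higher in each ZsGpos unit than in any other, at 9.15% to 14.9% beside 5.54% to 7.83% (ZsGneg) and 7.23% to 7.74% (WT). Its part in the levels of Prrx1 was not tested.

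Against WT, edgeR called 0 members in ZsGpos units, where 0.38% of all genes were called (0.127% higher and 0.254% lower). At an unadjusted p under 0.05, 6 members were higher and 2 lower (2.52% and 6.41% of all genes), and DESeq2 called 2 higher and 1 lower (1.12% and 1.78%). ZsGneg against WT gave 0 members called by edgeR (0.0423% of all genes, 0.037% higher and 0.00528% lower), 0 higher and 4 lower at an unadjusted p under 0.05 (2.91% and 7.19% of all genes) and 0 higher and 1 lower by DESeq2 (1.17% and 1.66%). ZsGpos against ZsGneg gave 10 members higher and 2 lower at an unadjusted p under 0.05 (9.69% and 8.62% of all genes), and 8 higher and 2 lower by DESeq2 (5.29% and 5.29%). The median log2 fold change of the 34 members was 0.67, -0.60 and 0.95 in these 3 comparisons, and -0.05, -0.15 and 0.14 over all genes tested.

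Members whose units did not overlap between groups were named after their values were seen, and all but Prrx1 missed the edgeR adjusted threshold. In ZsGpos against WT, 7 members had every ZsGpos unit above every WT unit (4.79% of all genes did) and 2 had every unit below (11.1% of all genes). Besides Prrx1, these were Prrx2, Foxf1, Irx1, Irx2, Msx1 and Meis1 above, and Hand1 and Eomes below. Prrx2 was at 7.04, 2.34, 8.67 and 8.80 CPM in ZsGpos units, 0 CPM in all 4 ZsGneg units and 0.0572, 0.238 and 0 CPM in WT units. Msx1 was at 38.5, 7.32, 13.5 and 30.5 CPM in ZsGpos units, 0, 4.51, 0.540 and 4.29 CPM in ZsGneg units and 1.75, 0.529 and 1.37 CPM in WT units. The ZsGpos units of both genes lay above all others. Their log2 fold changes against WT were 6.00 for Prrx2 (SE 2.43, edgeR adjusted p = 0.471) and 4.20 for Msx1 (SE 1.70, edgeR adjusted p = 0.45).

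Irx1 stood at 7.46, 3.92, 6.13 and 4.82 CPM in ZsGpos units, 0, 0.681, 0 and 3.51 CPM in ZsGneg units and 0.286, 0 and 0.163 CPM in WT units. Irx2 stood at 14.8, 17.3, 4.53 and 4.08 CPM in ZsGpos units, 0, 0.511, 0 and 0.143 CPM in ZsGneg units and 0.143, 0.555 and 0 CPM in WT units. Both Irx genes were thus above every other unit in all 4 ZsGpos units. In single ZsGpos cells Irx1 had 6 counts, so the bulk level was not seen there. The log2 fold changes against WT were 5.16 for Irx1 (edgeR adjusted p = 0.619) and 5.41 for Irx2 (edgeR adjusted p = 0.524).

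Foxf1 was at 25.9, 11.1, 26.1 and 6.48 CPM in ZsGpos units, 0, 8.94, 13.97 and 14.1 CPM in ZsGneg units and 0.744, 5.68 and 2.16 CPM in WT units. Meis1 was at 35.4, 53.7, 81.7 and 110.9 CPM in ZsGpos units, 49.2, 53.03, 23.2 and 35.1 CPM in ZsGneg units and 32.96, 23.8 and 31.1 CPM in WT units. For both genes ZsGpos and ZsGneg units overlapped. The log2 fold change against WT was 2.60 for Foxf1 (edgeR adjusted p = 0.788) and 1.27 for Meis1 (SE 0.48, edgeR adjusted p = 0.406).

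Hand1 was low in every ZsGpos unit, at 0.254, 0.226, 0.283 and 0.0926 CPM, against 0, 5.62, 27.9 and 15.2 CPM in ZsGneg units and 11.3, 13.2 and 4.28 CPM in WT units. The log2 fold change against WT was -5.45 (SE 1.81, edgeR adjusted p = 0.317, unadjusted p = 0.00944), which missed the edgeR adjusted threshold. Eomes was at 0, 0.302, 0.566 and 0.370 CPM in ZsGpos units, 0, 17.4, 12.8 and 14.6 CPM in ZsGneg units and 7.32, 6.29 and 3.42 CPM in WT units. Its log2 fold change against WT was -4.17 (edgeR adjusted p = 0.539). Single cells went the other way for Eomes, with 5.62 CPM in ZsGpos, 2.10 CPM in ZsGneg and 2.63 CPM in WT cells. Too few ZsGpos cells held it for a call.

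**Figure D5:**
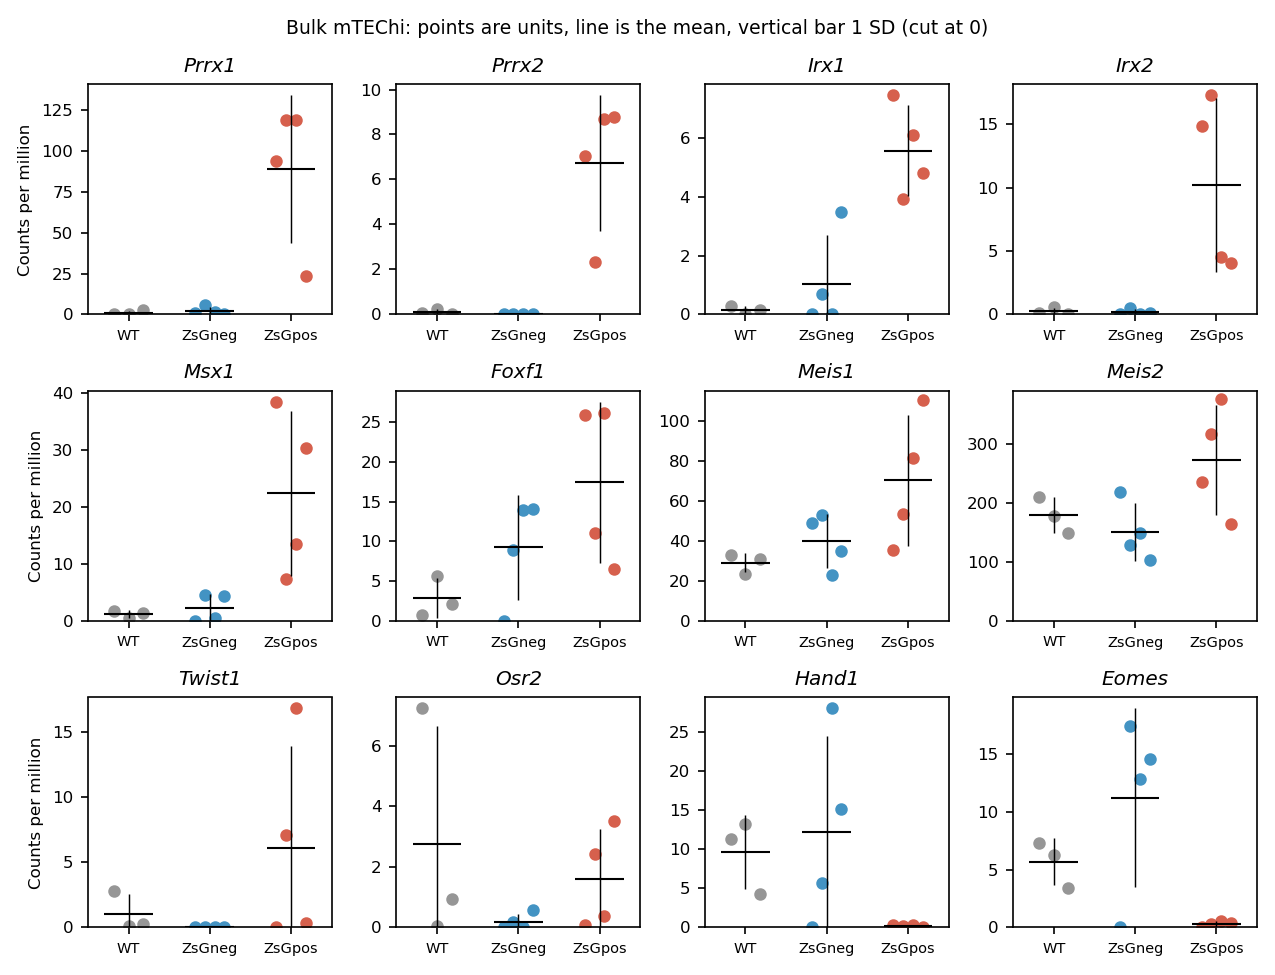
CPM of 12 members in each bulk unit (points) of WT, ZsGneg and ZsGpos mTEChi cells. The 4 ZsGpos points of Prrx1, Prrx2, Irx1, Irx2 and Msx1 lie above all others, those of Hand1 and Eomes lie below the WT points, and Meis2 overlaps between the groups.

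In ZsGneg against WT, 0 members had every unit above (3.92% of all genes) and 4 had every unit below (9.87% of all genes). These were Sox18, Wt1 and Twist1, at 0 CPM in all 4 ZsGneg units, and Tlx1. Tlx1 was at 0.397, 0, 0 and 0 CPM in ZsGneg units and 0.687, 8.27 and 3.51 CPM in WT units, a log2 fold change of -5.31 (edgeR adjusted p = 0.387). Twist1 was at 2.78, 0.132 and 0.279 CPM in WT units and at 0, 7.09, 16.8 and 0.370 CPM in ZsGpos units. In ZsGpos against ZsGneg, 7 members had every unit above (5.44% of all genes), namely Prrx1, Prrx2, Wt1, Irx1, Irx2, Msx1 and Tlx1, and 0 had every unit below (5.22%). Tlx1 in ZsGpos units was at 11.5, 2.64, 14.4 and 1.48 CPM, which overlaps with WT.

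The remaining members with high bulk levels overlapped between groups. Meis2 was at 235.6, 317.1, 377.1 and 164.4 CPM in ZsGpos units, 218.8, 129.5, 149.5 and 103.8 CPM in ZsGneg units and 210.9, 177.6 and 150.2 CPM in WT units. Tbx15 was at 21.2, 18.1, 21.4 and 24.1 CPM in ZsGpos units, 30.0, 29.1, 0 and 3.93 CPM in ZsGneg units and 23.5, 20.5 and 57.1 CPM in WT units. Foxc1 was at 49.3, 22.3, 11.9 and 49.6 CPM in ZsGpos units, 30.1, 12.9, 0 and 19.7 CPM in ZsGneg units and 6.15, 21.8 and 12.8 CPM in WT units. ZsGneg unit 03 had no count of Tbx15, Foxc1, Six2 or Tbx18. Tbx3 was at 7.12, 31.5, 28.8 and 17.3 CPM in ZsGpos units, 0.397, 29.9, 4.40 and 2.86 CPM in ZsGneg units and 9.01, 16.1 and 38.1 CPM in WT units. Tbx18 was at 4.32, 0, 24.5 and 3.52 CPM in ZsGpos units, 22.8, 10.9, 0 and 0.358 CPM in ZsGneg units and 2.57, 9.51 and 2.56 CPM in WT units. Six2 was at 14.2, 12.2, 69.8 and 11.5 CPM in ZsGpos units, 23.8, 30.8, 0 and 0.0715 CPM in ZsGneg units and 19.4, 17.8 and 8.72 CPM in WT units. Alx4 was at 0.678, 12.4, 0 and 1.30 CPM in ZsGpos units, 0, 0.255, 24.6 and 1.07 CPM in ZsGneg units and 7.67, 15.8 and 8.09 CPM in WT units. These genes thus varied by more than 10-fold within a group in several cases.

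Markers of other cells were present in the bulk units of all groups. Mesenchymal markers summed to 332.7 to 466.45 CPM in ZsGpos, 180.4 to 488.65 CPM in ZsGneg and 147.99 to 255.3 CPM in WT units. Mural markers reached 1099.8 to 2144.5 CPM in ZsGpos units, beside 653.4 to 1603.9 CPM (ZsGneg) and 649.8 to 1047.6 CPM (WT). Endothelial markers summed to 15.9 to 72.99, 2.08 to 40.4 and 43.9 to 55.9 CPM, and leukocyte markers to 290.3 to 620.5, 357.99 to 1284 and 350.7 to 510.01 CPM. MHC class II genes, by which these cells were sorted, stood at 17968 to 19524 CPM in ZsGpos, 32871 to 52060 CPM in ZsGneg and 26161 to 33556 CPM in WT units. Mesenchymal and mural sums in every ZsGpos unit lay above those in every WT unit, and their part in the levels of Prrx1 was not tested.

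Other genes of these families were read from a list of 53. In cTECs 16 of 31 past the level rule were higher in the Eed strain and 1 was lower (17.2% and 12% of all genes). Their median log2 difference was 1.21. Examples were Foxe1, a factor of pharyngeal endoderm (at least 309.45-fold), Foxf2 (at least 171.4-fold) and En1, a limb ectoderm factor (at least 93.7-fold). Tbx6 was 7.78-fold lower. ZsGpos against WT gave 9 higher and 1 lower of 29 (7.58% and 11.2% of all genes). ZsGneg against WT gave 1 higher and 3 lower of 25, near the shares over all genes (5.75% and 9.29%). ZsGpos against ZsGneg gave 10 higher and 1 lower of 29 (8.47% and 8.65% of all genes). Zeb2, a repressor linked to epithelial to mesenchymal change, was 16.4-fold above WT and 4.92-fold above ZsGneg in ZsGpos cells. In bulk, edgeR called 0 of the 33 tested in the 3 comparisons (0.38%, 0.0423% and 2.66% of all genes). At an unadjusted p under 0.05, 3 were higher in ZsGpos than in WT units (2.52% of all genes) and 1 was lower in ZsGneg than in WT (7.19%). In ZsGpos against ZsGneg 5 were higher (9.69%). DESeq2 called 2, 0 and 3 of them, where 2.9%, 2.84% and 10.6% of all genes were called.

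Signals of the limb and mesoderm were read from a list of 32. In cTECs 11 of 20 were higher in the Eed strain and 1 was lower (17.2% and 12% of all genes), with a median log2 difference of 1.25. Aldh1a2, which makes retinoic acid, was 108.97-fold higher, Gli1, a readout of hedgehog signalling, at least 58.2-fold, Tgfb2 24.1-fold and Wnt5a, a limb outgrowth signal, 19.6-fold, and Wnt3a was 2.48-fold lower. ZsGpos against WT gave 7 higher and 1 lower of 21 (7.58% and 11.2% of all genes), led by Fgfr1 at 107.1-fold. ZsGneg against WT gave 3 higher and 3 lower of 20 (5.75% and 9.29%). ZsGpos against ZsGneg gave 7 higher and 1 lower of 19 (8.47% and 8.65%). The lower one was Aldh1a2, by a factor of 16.2, at 1.32 CPM in ZsGpos and 21.5 CPM in ZsGneg cells. A list of 21 genes held PRC2 and PRC1, the complexes that place and read H3K27me3, with Kdm6a and Kdm6b, which remove that mark. Of these, 1 was higher in Eed cTECs (Bmi1, 7.36-fold) and 0 were lower (17.2% and 12% of all genes). In ZsGpos against WT cells 0 were higher and 2 lower (7.58% and 11.2% of all genes), Kdm6a by a factor of 2.77 and Cbx2 by 2.28. In bulk, edgeR called 0 of 27 tested signal genes in the 3 comparisons. At an unadjusted p under 0.05, 1 was higher in ZsGpos than in WT units (2.52% of all genes). In ZsGneg against WT 1 was higher and 4 were lower (2.91% and 7.19%), and in ZsGpos against ZsGneg 7 were higher (9.69%). DESeq2 called 1, 0 and 6, where 2.9%, 2.84% and 10.6% of all genes were called. EdgeR also called 0 of 19 tested genes of the PRC2 and PRC1 list. At an unadjusted p under 0.05, 1 of these was lower in each comparison (6.41%, 7.19% and 8.62% of all genes). DESeq2 called 1 of them, in ZsGpos against WT.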

How the data were processed

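RNA of mouse thymic epithelial cells was read by SMART-seq2, without molecular identifiers. The deposited table holds whole read counts per gene for 2319 samples, which the authors made from their reads. Tools listed without a role, per the submitters' processing notes, were HTSeq and the aligners HISAT 0.1.6 and BWA 0.5.9, besides Trimmomatic, FastQC and MACS2, with mm10 as the build. Of 2343 samples, 24 (H3K27me3 and input samples and repeat runs) were not analysed here. The 92 spike-in rows and 5 rows of reads outside genes were left out of library totals.

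The members and gene lists were chosen with earlier results of these data known. Bulk units were compared in 1 fit with edgeR 4.0.16 (R 4.3.3; low-count filter, TMM scaling, quasi-likelihood test, Benjamini-Hochberg adjustment over all genes tested, threshold 0.05). DESeq2 1.42.0 and the other settings are in the closing section. The fit was tested on simulated data. Single-cell counts were summed per group with pandas 2.3.3, since no animal is named. Plates carry the names given in the sample titles.

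Named in full are the members called in bulk, the 12 with the highest mean bulk CPM, and per single-cell comparison those past the 2-fold rule, or the 12 largest folds. Others were named after their values were seen. Prrx1, Tbx3, Irx2, Sall4, Meis1 and Meis2 overlap another annotated gene. It is not stated whether reads were counted by strand, so the counts of these 6 may hold reads of that gene. Doublets were not called. Some genes of the related lists are not reported here by name.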

Additional observations from a re-analysis of the deposited data

Results flagged for a closer look

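The 12 members with the highest mean bulk CPM, Prrx1 among them, gave 24 sets of 4 bulk units, 1 for each Eed group. In each set a unit was looked for that stood apart from the other 3 by the 95% limit of Dixon's test. Other members given by unit, such as Prrx2, Irx1, Irx2 and Tlx1, were not searched. This limit picks about 1 in 20 sets by chance only where values are normally distributed, which was not shown for these CPM. The 4 sets found can therefore not be set against a chance rate, and in all 4 it was the highest unit that stood apart. Six2 had 69.8 CPM in 1 ZsGpos unit against 14.2 CPM in the next. Tbx3 had 29.9 CPM in 1 ZsGneg unit, and the next had 4.40 CPM. Alx4 stood apart in both groups, with 24.6 CPM in 1 ZsGneg unit (next 1.07 CPM) and 12.4 CPM in 1 ZsGpos unit (next 1.30 CPM).

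The small pools of mTEChi cells, which enter no comparison, also held Prrx1. There were 22 Prrx1 counts in 4 of 6 ZsGpos pools, a summed level of 46.4 CPM. No count was found in 6 WT pools, which allows up to 9.62 CPM, or in 3 ZsGneg pools, which allows up to 19.5 CPM, by counting error alone. Of the 22 counts, 18 came from pools on plate SCGC1381 (122.1 CPM), which held no pool of the other groups. On SCGC1373, which the 3 groups share, ZsGpos pools had 4 counts (12.2 CPM), below the 33.8 CPM in WT and 19.5 CPM in ZsGneg pools that 0 counts allow there. A difference was not detectable on the shared plate at this depth. These pools held few gene counts, from 68 to 180374 in the ZsGpos group.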

How the results depend on the processing

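In bulk, ZsGpos against WT gave 0 members called, but 1 with the 9 WT libraries one by one, 1 without a low-count filter, 1 with only the 2 groups in the fit and 3 by DESeq2. ZsGneg against WT gave 0, but 1 by DESeq2. ZsGpos against ZsGneg gave 1, but 0 with the 9 WT libraries one by one, 0 with reads outside genes as a covariate, 2 with only those groups in the fit and 10 by DESeq2. Leaving out 1 unit at a time gave 0 to 1 for ZsGpos against WT (1 without ZsGneg unit 04, where Prrx1 had an edgeR adjusted p of 0.0304), 0 for ZsGneg against WT and 0 to 1 for ZsGpos against ZsGneg, where Hand1 was called lower in place of Prrx1 without ZsGneg unit 01. The cause was not tested.

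Prrx1 against WT had an edgeR adjusted p of 0.00978 with 9 WT libraries, 3.88e-06 without the filter, 0.0271 with 2 groups and 0.398 with the covariate, and 3.26e-07 by DESeq2. Against ZsGneg its edgeR adjusted p was 0.125, 1.62e-06, 0.0388 and 1, and 3.28e-06 by DESeq2. Units with the same number did not deviate together: correlations were -0.021 to 0.018 over 10 same-numbered pairs and -0.018 to 0.018 over 30 others, and 6 of 20 best correlates carried the unit's own number. With the number as a replicate block, 0, 0 and 1 members were called, and Prrx1 against ZsGneg had a log2 fold change of 6.06 (edgeR adjusted p = 0.0246).

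Of all genes, edgeR called 0.38% in ZsGpos against WT, which became 2.9% by DESeq2, 1.67% with 9 WT libraries, 0.831% without the filter, 0.678% with 2 groups, 0.037% with the covariate and 0.044% to 0.5001% without 1 unit. For ZsGneg against WT 0.0423% became 2.84%, 0.768%, 0.368%, 0.00583% and 0% in that order, 0.00528% with the block and 0% to 0.0269% without 1 unit. For ZsGpos against ZsGneg 2.66% became 10.6% by DESeq2 and 0% with the covariate.

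In single cells, 17 of 22 members past the level rule differed between the cTEC groups once marker-rich cells were left out, instead of 26 of 30. Of all genes, 14.9% were then higher and 13.2% lower, instead of 17.2% and 12%. Within 1 plate fewer members passed the level rule. ZsGpos against WT gave 2 higher and 1 lower of 8 on SCGC1373. It gave 8 and 0 of 10 on SCGC1379 and 5 and 0 of 11 on SCGC1380, instead of 10 and 2 of 27. Of all genes, 10.4% to 13.5% were higher there and 9.21% to 12.9% lower. ZsGneg against WT gave 4 higher and 0 lower of 6 (SCGC1379), 0 and 1 of 6 (SCGC1380) and 1 and 0 of 5 (SCGC1381). Over all plates it gave 4 and 2 of 22. On SCGC1373 it gave 4 higher and 1 lower of 9. All genes gave 5.91% to 15.6% higher and 8.56% to 11.1% lower. ZsGpos against ZsGneg gave 3 higher and 4 lower of 10 on SCGC1373 and 3 and 3 of 11 on SCGC1379. On SCGC1380 it gave 5 and 0 of 11, and over all plates 10 and 3 of 25. The median log2 difference of the members was -0.25, -0.24 and 0.94 on these plates, instead of 0.66. Without SCGC1380, 7 were higher and 6 lower of 19, with a median of 0.06. The lean towards higher levels in ZsGpos cells thus did not hold on each plate. All genes gave 8.76% to 10.8% higher and 7.22% to 13.6% lower. Ratios of ZsGpos to WT turned within a plate for Irx6 (6.99 on SCGC1373), Tlx1 (0.474 on SCGC1373), Irx4 (0.958 on SCGC1373, 0.745 on SCGC1379) and Hand1 (1.06 on SCGC1379). Ratios of ZsGneg to WT turned for Osr1 (0.0238 on SCGC1381), Irx6 (2.32 on SCGC1373) and Tlx1 (1.28 on SCGC1381). Ratios of ZsGpos to ZsGneg turned for Twist1 (0.308 on SCGC1373), Osr1 (1.05 on SCGC1380), Hand1 (2.45 on SCGC1379, 56.4 on SCGC1380) and Alx4 (0.51 on SCGC1380). Leaving out 1 plate at a time gave 0.188 to 1.70 for Osr1 and 0.178 to 3.93 for Hand1. The values within SCGC1381 for ZsGpos cells were not run, since it held 2 of them. Depth limits single-cell shares: a gene without a count in a cell may have been missed.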
